A study of Saccharomyces cerevisiae with 24 samples.

Results

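Ergosterol is the main sterol of yeast membranes. Its synthesis begins with acetyl-CoA, runs through mevalonate and farnesyl pyrophosphate to squalene and lanosterol, and ends after a series of demethylation, isomerisation and desaturation steps that use oxygen, heme and NADPH. Surplus sterol is stored as sterol esters, and the transcription factors Upc2 and Ecm22 bind sterol response elements in the promoters of many of these genes. The genes examined here are the 34 listed genes of mevalonate and sterol synthesis, sterol esterification and handling, and their regulators. They were matched by systematic name in the deposited gene tables, and all 34 were found among the 5193 genes of the files.

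RNA was sequenced from 24 samples of the wild-type strain W303-1B (W303 in the labels) of Saccharomyces cerevisiae, grown in rich YPD medium with no chemical treatment and carrying the ade2, trp1, can1, leu2, his3 and ura3 alleles in every group. A liquid handling robot pipetted the cells at 50, 130, 210 or 290 µL/s, which gave 6 samples per speed, from 2 biological replicates with 3 technical replicates each. A biological replicate is 1 culture of the same clone (B1 and B2), so samples of the same culture share their cells before pipetting. The labels number the technical replicates (T1, T2 and T3) and say nothing more of what the number stands for. The 6 combinations of culture and technical replicate number therefore hold 4 samples each, 1 per speed, and p-values measure the spread between libraries of only 2 cultures.

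The library totals ran from 11555784 to 15464458 expected counts, and the median library had 13123683. Mean fragment lengths lay between 179 and 190 nt, and their medians were 185, 186 and 184 nt in T1, T2 and T3. Levels are given below as CPM, counts relative to library size after scaling by TMM, edgeR's correction for library composition, and levels between genes are compared as TPM, which corrects for gene length. All 34 genes passed the filter on average count, as did 5142 genes in all. The methods describe the strain as MATa. The levels of the alpha-cell markers were 1160 to 1430 CPM for MF(ALPHA)1, the alpha-factor gene, and 410 to 553 CPM for STE3, the a-factor receptor. The a-cell markers STE2, the alpha-factor receptor, and BAR1, the alpha-factor protease, lay between 5.30 and 10.5 CPM, so the markers went against that label. MFA1, MFA2 and AGA2 were not analysed here.

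Most ergosterol genes were well expressed. The mean TPM was above the median of all genes kept, 53.6, for 28 of the 34. ERG11, the lanosterol demethylase that azole antifungals inhibit, had the highest mean, 956 ± 439 TPM (SD, n = 24). It was followed by ERG25, the methyl sterol oxidase, at 743 ± 337 TPM, and ERG6, the sterol methyltransferase, at 722 ± 226 TPM. HMG1 and HMG2, which encode the rate-limiting HMG-CoA reductases, stood lower at 116 ± 60.7 and 103 ± 7.82 TPM. The regulators ECM22, UPC2 and SUT1 had means of 43.0, 30.2 and 26.6 TPM, and HES1, of the oxysterol-binding protein family, was lowest at 3.05 ± 0.751 TPM. Of the 33 pairs of neighbours in this order, the ranges of mean and SD were separate for 3, ECM22 above UPC2, SUT1 above ARV1 and ARV1 above HES1. The ranges of the other neighbours overlapped. All genes were measured in the same 24 samples, so this overlap does not show that neighbours were equal within a sample.

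**Figure D1:**
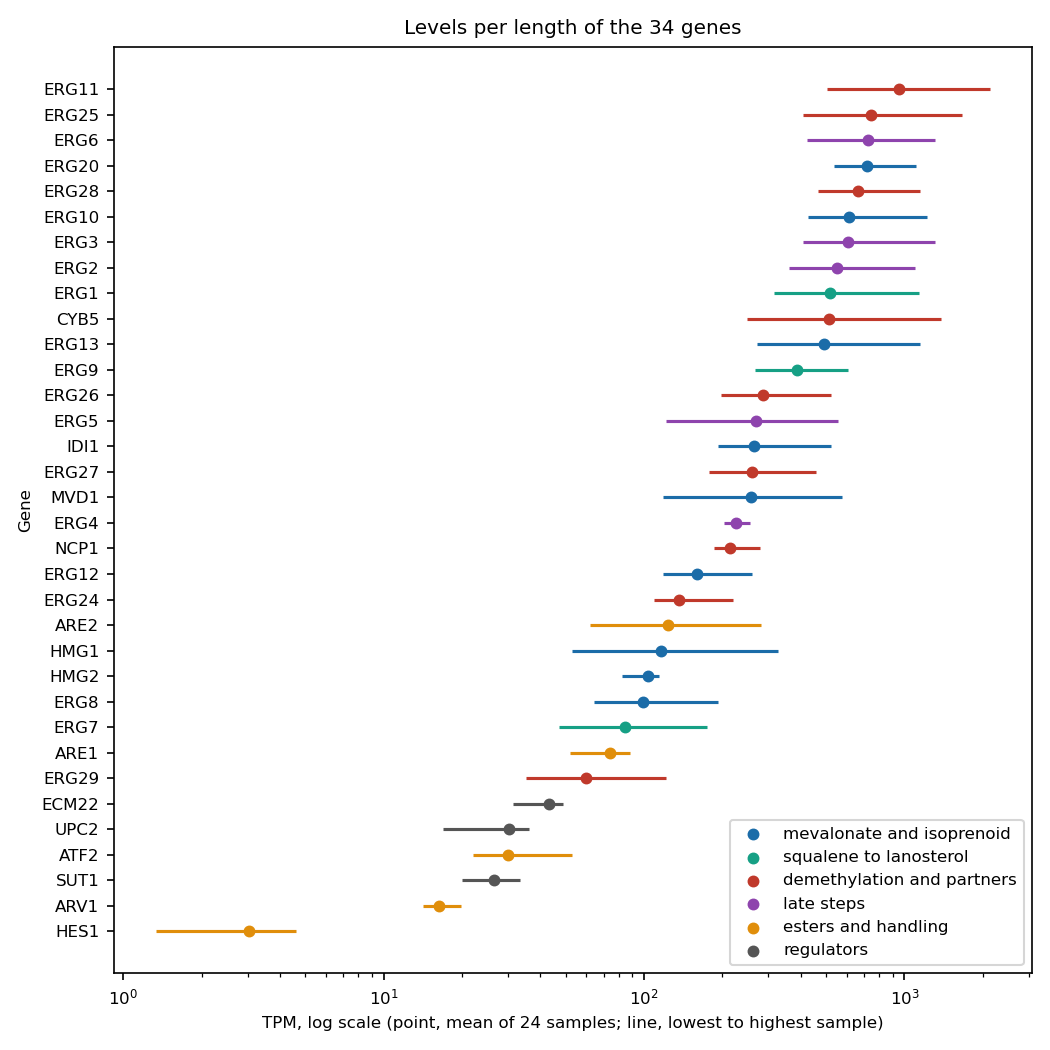
TPM of the 34 genes on a log axis, ordered by mean, with points for the mean of 24 samples and lines from the lowest to the highest sample, coloured by role in the pathway. ERG11 has the highest mean (956 TPM) and HES1 the lowest (3.05 TPM), and HMG1 spans a much wider range than its paralog HMG2.

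The spread across samples was far from even. The coefficient of variation of the CPM had a median of 30.4% over the 34 genes, against 8.14% over all genes kept. It was 53.9% for CYB5, which encodes the cytochrome that passes electrons to sterol-modifying enzymes, and 51.5% for HMG1. It was 5.06% for ERG4, the reductase of the last step, and 8.60% for HMG2. The highest sample lay among the 4 samples of B2T3 for 27 of the 34 genes, and it was the 50 µL/s sample of B2T3 for 25.

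The summed CPM of the 26 synthesis genes shows this directly. From 50 to 290 µL/s, the sum in B1T1 was 9156, 9398, 10815 and 11545 CPM. In B1T3 it was 11595, 11549, 10568 and 10336 CPM in the same order of speeds, and in B2T1 it was 9659.8, 9951, 10785 and 10332 CPM. In B2T3 it was 22461, 20933, 18065 and 15694 CPM, so that the lowest of these 4 samples lay above the highest of the other 20. The mean of B2T3, 19288 ± 3010 CPM (SD, n = 4), was 1.89 times that of B2T1, 10182 ± 487 CPM (SD, n = 4). The mean of B1T3, 11012 ± 654 CPM (SD, n = 4), was 1.08 times that of B1T1, 10229 ± 1143 CPM (SD, n = 4). The sums of T2 lay between 8012 and 10390 CPM in both cultures. The totals of the B2T3 libraries ran from 11707060 to 15464458 counts, the 50 µL/s sample being the deepest of the 24, and their mean fragment lengths from 179 to 188 nt. The part of depth in the difference was not tested. In bulk RNA, a change in all cells of a culture and a larger change in some of them cannot be told apart.

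**Figure D2:**
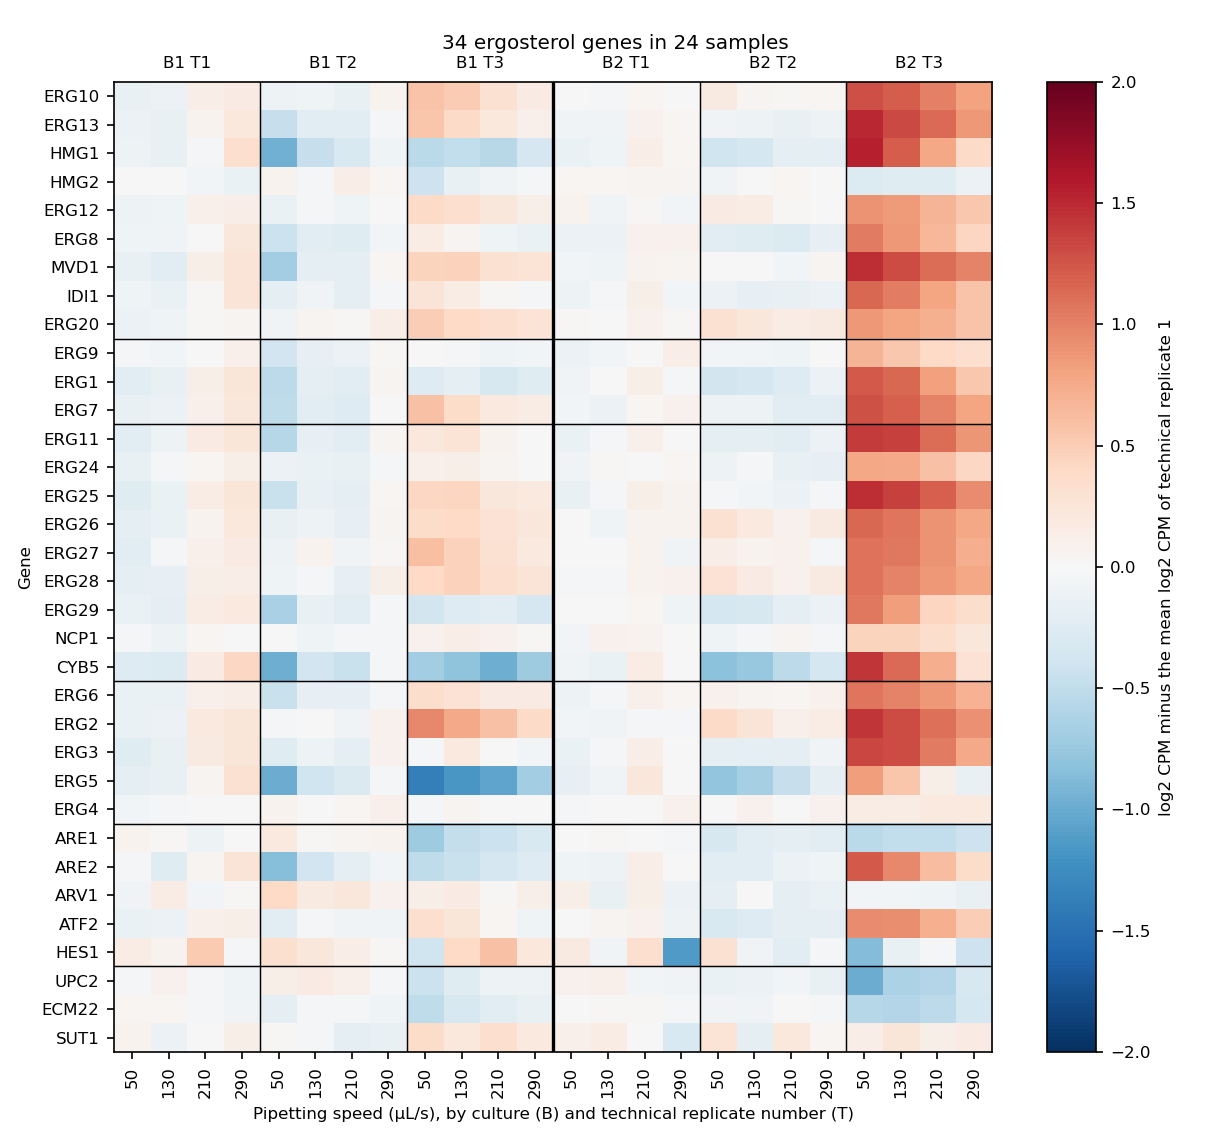
Heat map of log2 CPM of the 34 genes (rows, grouped by role) in the 24 samples (columns, by culture, technical replicate number and speed in µL/s), relative to the mean log2 CPM of the 8 samples of T1. The 4 columns of B2T3 are raised for most synthesis genes, whose summed CPM there was 15694 to 22461, and lowered for UPC2 and ECM22.

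The study asked whether pipetting speed changes gene expression. None of the 34 genes passed an FDR of 0.01 at 130, 210 or 290 µL/s against 50 µL/s in edgeR's quasi-likelihood test with the model of the study, speed and biological replicate (FDR, the Benjamini-Hochberg adjusted p over all 5142 genes). DESeq2 also called 0 of the 34 in each, and 0 had an unadjusted p below 0.05 by edgeR. Among all genes, 0%, 0% and 0.0389% were called. With technical replicate number added as a term shared by both cultures, 0 of the 34 were again called. Among all genes, 1.89% were called higher and 2.33% lower at 290 µL/s, and 0% at 130 and at 210 µL/s. In that model 1 of the 34, ERG4, had an unadjusted p below 0.05 at 290 µL/s. The log2 changes of the 34 genes between 290 and 50 µL/s lay between −0.17 and 0.24, with a median of 0.02. The interval of the difference was narrow for ERG4 (0.07, 95% interval 0.00 to 0.14) and HMG2 (0.07, −0.03 to 0.17) and wide for CYB5 (0.10, −0.55 to 0.76) and ERG5 (0.24, −0.31 to 0.79), so the intervals of the variable genes still hold changes of that size. Fitted within 1 technical replicate number at a time, the comparison of 290 with 50 µL/s called 0 of the 34 genes in T1, where 0% of all genes were called. In T2 it called 2, CYB5 (0.70) and ERG5 (0.78), both higher at 290 µL/s, where 0.175% of all genes were higher and 0.0389% lower. In T3 it called 7, all lower at 290 µL/s, where 0.136% of all genes were higher and 0.895% lower, namely ERG10 (−0.45), ERG13 (−0.55), ERG12 (−0.31), ERG7 (−0.46), ERG27 (−0.38), ERG2 (−0.53) and ATF2 (−0.44). These fits rest on 8 samples each.

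The comparison of the cultures likewise gave few calls. None of the 34 genes passed an FDR of 0.01 between biological replicates 2 and 1 by edgeR's quasi-likelihood test or DESeq2, with 0% of all genes called, 18 of the 34 at an unadjusted p below 0.05 and a median log2 difference of 0.31 over the 34. With technical replicate number as a term, edgeR called 0 of the 34 (0.175% of all genes higher and 0.194% lower), 30 of them had an unadjusted p below 0.05, and DESeq2 called 4, each higher. Without 290 µL/s B1T1 or without 210 µL/s B1T1 edgeR called 2. The share of all genes at an unadjusted p below 0.05 is not given here. The 18 and the 30 of the 34 therefore have no background beside them.

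Between T2 and T1, 0 of the 34 genes passed the threshold by edgeR's quasi-likelihood test or by DESeq2, with 1.77% of all genes higher and 2.51% lower, and 1 of the 34 at an unadjusted p below 0.05. For T3 against T1, edgeR called 25 of the 34 genes at an FDR of 0.01, 21 higher and 4 lower, where 26.2% of all genes were higher and 23.1% lower. Against T2, 21 were higher and 4 lower, with 20.1% of all genes higher and 18.4% lower. Both comparisons use the same T3 samples. The median log2 change of T3 over T1 was 0.40 over the 34 genes and 0.01 over all genes. The 8 samples of T3 lay above all 8 of T1 for 7 of the 34 genes (12.8% of all genes) and below them for 3 (12.6%).

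By role, T3 was higher than T1 for 7 of the 9 mevalonate and isoprenoid genes, 1 of the 3 genes from squalene to lanosterol, 7 of the 9 genes of lanosterol demethylation and its partners, and 4 of the 5 late genes. Of the 5 esterification and handling genes 1 was higher, ATF2, which acetylates sterols, and 1 was lower, ARE1. Of the regulators SUT1 was higher and UPC2 and ECM22 were lower. The fourth gene that fell was HMG2. The genes that did not pass were HMG1, ERG9, ERG1, ERG29, CYB5, ERG5, ARE2, ARV1 and HES1.

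The mevalonate genes with the largest changes were MVD1, ERG13 and ERG10. MVD1, mevalonate pyrophosphate decarboxylase, had 208, 239 and 287 CPM as the lowest, median and highest sample of T1, 148, 234 and 250 CPM in T2, and 289.5, 404 and 667 CPM in T3, where every sample lay above all of T1 and T2. The log2 change of T3 over T1 was 0.82 ± 0.13 (SE, edgeR FDR = 1.06e-05). Within T3 the 2 cultures were apart, with 328, 330.0, 296 and 289.5 CPM in B1 and 667, 594, 521 and 478 CPM in B2, from 50 to 290 µL/s. ERG13, HMG-CoA synthase, had 543, 593 and 695 CPM in T1, 437, 550.4 and 588 CPM in T2 and 644, 988 and 1702 CPM in T3. The ranges of T1 and T3 overlapped through B1, whose T3 samples had 883, 783, 696 and 644 CPM from 50 to 290 µL/s, while those of B2 had 1702, 1501, 1313 and 1092 CPM. The change was 0.79 ± 0.13 (SE, edgeR FDR = 3.04e-05). ERG10, the acetyl-CoA acetyltransferase of the first step, had 520.3, 575 and 649 CPM in T1, 521, 591 and 657 CPM in T2 and 648, 933 and 1421 CPM in T3. Its T3 samples had 856, 823, 718 and 648 CPM in B1 and 1421, 1347, 1162 and 1009 CPM in B2, so that only the 290 µL/s sample of B1 fell within the range of T1. The change was 0.74 ± 0.10 (SE, edgeR FDR = 2.42e-06).

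ERG7, lanosterol synthase, had 150.3, 166 and 194 CPM in T1, 118, 145 and 165 CPM in T2 and 184, 268 and 405 CPM in T3 (log2 change 0.71 ± 0.12 SE, edgeR FDR = 2.33e-05). In T3 it had 249, 216, 192 and 184 CPM in B1 and 405, 382, 330.2 and 287 CPM in B2 from 50 to 290 µL/s. Both B1 samples at the higher speeds lay within the range of T1, and no sample of B2 did. ERG11 had 1115, 1297 and 1544 CPM in T1, 881, 1148 and 1361 CPM in T2 and 1302, 1986 and 3464 CPM in T3 (0.70 ± 0.16, edgeR FDR = 0.000596). Its T3 samples had 1513, 1573, 1369 and 1302 CPM in B1, which overlapped T1, and 3464, 3382, 2846 and 2399 CPM in B2, which did not.

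ERG25 had 434, 519.7 and 609 CPM in T1, 378, 485 and 527 CPM in T2 and 592, 844 and 1434 CPM in T3 (0.81 ± 0.14, edgeR FDR = 2.64e-05). From 50 to 290 µL/s its T3 samples had 686, 696, 601 and 592 CPM in B1 and 1434, 1319, 1175 and 993 CPM in B2. ERG27, the keto reductase that works with ERG25 and ERG26, had 182, 214 and 239 CPM in T1, 199.7, 221 and 234 CPM in T2 and 245, 338 and 454 CPM in T3, with no overlap between T3 and T1 (0.67 ± 0.09, edgeR FDR = 8.34e-07). Its T3 samples had 324, 294, 264 and 245 CPM in B1 and 454, 442, 400.4 and 353 CPM in B2. ERG2, the sterol isomerase, showed the largest change of the 34 genes. It had 209, 223 and 271 CPM in T1, 219, 245 and 298 CPM in T2 and 299.9, 439 and 616 CPM in T3, again with every T3 sample above T1 and T2 (0.93 ± 0.10, edgeR FDR = 6.89e-08). In T3 ERG2 had 444, 389, 344 and 299.9 CPM in B1 and 616, 568, 495 and 434 CPM in B2, and it was raised in both cultures.

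Of the 3 regulators, UPC2 and ECM22 fell in T3 and SUT1 rose over the cultures together. Within each culture, ECM22 passed in both, UPC2 passed in B2 and not in B1, and SUT1 passed in neither. UPC2 had 92.8, 96.2 and 106 CPM in T1, 88.9, 95.2 and 109.8 CPM in T2 and 49.5, 75.7 and 92.1 CPM in T3, and every T3 sample lay below T1 (log2 change −0.42 ± 0.08 SE, edgeR FDR = 8.71e-05). Its T3 samples had 72.7, 83.5, 92.1 and 91.8 CPM in B1 and 49.5, 63.3, 65.3 and 78.7 CPM in B2 from 50 to 290 µL/s, so the 50 µL/s sample was lowest in each culture. ECM22, the paralog of UPC2, had 119, 126 and 129.6 CPM in T1, 109.9, 121 and 127 CPM in T2 and 83.3, 93.2 and 113 CPM in T3, again with every T3 sample below T1 (−0.40 ± 0.05, edgeR FDR = 2.76e-07). Its T3 samples had 88.4, 100.1, 107 and 113 CPM in B1 and 84.4, 83.3, 87.2 and 97.9 CPM in B2. SUT1, a factor linked to sterol uptake, was measured at 16.9, 21.5 and 23.1 CPM in T1, 18.2, 20.8 and 25.3 CPM in T2 and 22.7, 24.0 and 27.2 CPM in T3, with overlap of all 3 ranges (0.22 ± 0.07, edgeR FDR = 0.00987). In T3 it had 27.2, 24.2, 26.5 and 23.9 CPM in B1 and 22.9, 24.8, 22.7 and 23.5 CPM in B2.

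HMG2 and ARE1 were lower in T3, and their paralogs HMG1 and ARE2 did not pass in this comparison. HMG2 had 337, 375 and 383 CPM in T1, 350.0, 376 and 403 CPM in T2 and 276, 323 and 358 CPM in T3, with overlap of the ranges (log2 change −0.19 ± 0.04 SE, edgeR FDR = 0.000434). ARE1, the minor sterol acyltransferase, had 149, 160.3 and 167 CPM in T1, 128, 151 and 182 CPM in T2 and 97.6, 114 and 129 CPM in T3, with no overlap of T3 and T1 (−0.48 ± 0.06, edgeR FDR = 2.19e-07). RSEM divides reads that fit several places, and the expected counts were not whole in 14 samples for HMG1, 16 for HMG2, 7 for ARE1, 11 for ARE2 and 7 each for UPC2 and ECM22. They were also not whole in 23 samples for ERG11 and 20 for ERG3, so this count does not set the paralog pairs apart. How many reads were shared within a pair was not tested.

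Whether the difference among technical replicate numbers was the same in both cultures was tested with an interaction term. It passed an FDR of 0.01 for 24 of the 34 genes by edgeR's quasi-likelihood test, where 6.3% of all genes passed. By role these were 7 of the 9 mevalonate genes, all 3 genes from squalene to lanosterol, all 9 of lanosterol demethylation and its partners, 3 of the 5 late genes and 2 of the 5 esterification and handling genes, with none of the 3 regulators. The count was between 19 and 27 when any 1 sample was left out, and 26 by DESeq2.

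The contrasts within each culture were chosen after this interaction was seen. In B2, T3 was higher than T1 for 26 of the 34 genes and lower for 4 (edgeR FDR below 0.01), with 21.5% of all genes higher and 18.8% lower, and the median log2 change was 0.81. In B1 it was higher for 7 genes and lower for 4, with 21.5% and 18.8% of all genes again, and the median was 0.08. Calls in B1 were therefore no more frequent among the 34 than among all genes. Without 290 µL/s B1T1 the calls in B1 came to 17 rather than 11. The 7 that rose in B1 were ERG10, ERG12, ERG20, ERG26, ERG27, ERG28 and ERG2, and the 4 that fell were ERG5, CYB5, ARE1 and ECM22. Those that did not pass in B2 were ERG5, SUT1, ARV1 and HES1.

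The difference between the cultures in the T3 against T1 change passed for 23 of the 34 genes, all of them more positive in B2, where 1.21% of all genes were more positive and 0.0583% less. It fell to 9 genes when any of 3 samples, 210 µL/s B1T1 or B2T1 and B2T3 at 130 µL/s, was left out, and to 8 without 50 µL/s B2T1. Compared directly within T1, 0 of the 34 genes passed between B2 and B1 by edgeR's quasi-likelihood test, with 0 at an unadjusted p below 0.05 (0.0194% of all genes higher, 0% lower). In T2, 2 genes were lower in B2, ARE1 and ARV1 (5.02% of all genes higher, 3.25% lower). In T3, 27 of the 34 genes were higher in B2 and 1, UPC2, was lower, where 3.31% of all genes were higher and 0.972% lower. With mean fragment length as a covariate the number called in T3 was again 28. The median log2 difference in T3 was 0.65 over the 34 genes and −0.01 over all genes.

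The 4 samples of B2T3 lay above each of the other 20 samples for 24 of the 34 genes and below them for none, compared with 2.02% and 0.564% of all genes. This grouping was singled out after the values were seen and the counts are a description. The 24 were 8 of the 9 mevalonate genes, with HMG2 the exception, all 3 genes from squalene to lanosterol, 8 of the 9 of lanosterol demethylation, where the exception was CYB5, together with ERG6, ERG3 and ERG4 of the late genes and ARE2 and ATF2 of the esterification genes.

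**Figure D3:**
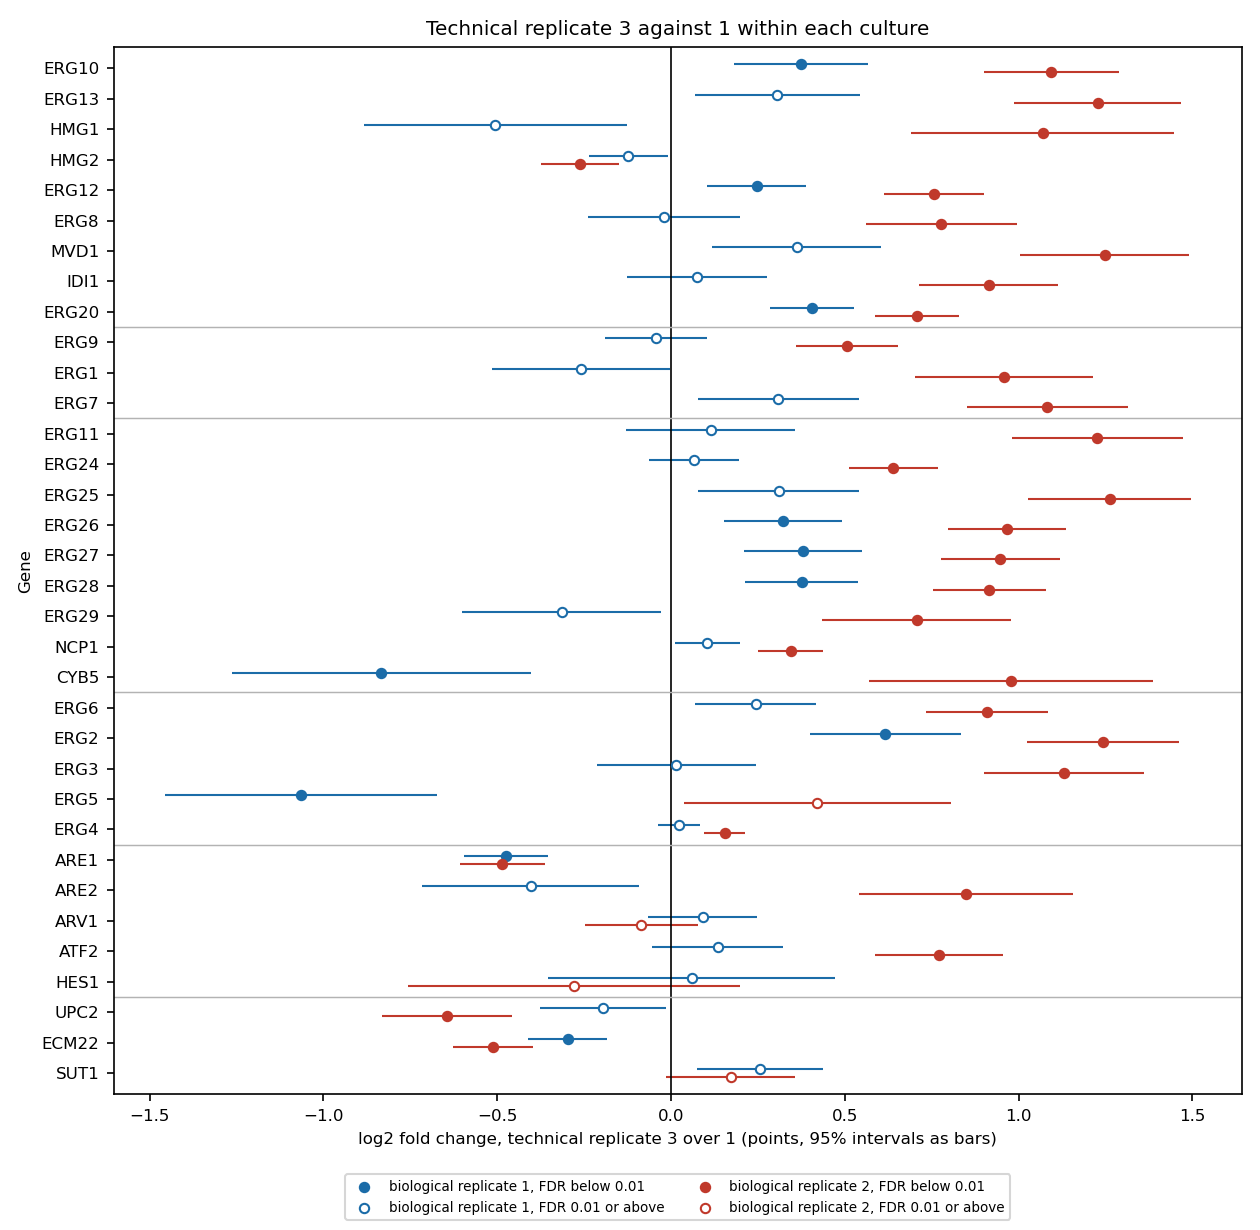
Log2 fold change of T3 over T1 for each of the 34 genes within biological replicate 1 (blue) and 2 (red), from 1 edgeR model, with 95% intervals as bars and filled points for an FDR below 0.01. In biological replicate 2 the changes have a median of 0.81 and 26 genes are called higher, and in biological replicate 1 the median is 0.08 and 7 are called higher. Over all genes, 21.5% are called higher in each replicate.

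The genes with the largest differences between the cultures in the T3 against T1 change are described next. They were picked after their values were seen, and of these only CYB5 passed in both cultures with opposite signs in the model of all samples. HMG1 had 354, 343, 376 and 479 CPM in B1T1 and 261, 269.8, 259.7 and 301 CPM in B1T3 from 50 to 290 µL/s, and every B1T3 sample lay below every B1T1 sample. In B2 it had 346, 358, 416 and 391 CPM in T1 and 1117, 877, 649.9 and 498 CPM in T3, and every T3 sample lay above T1. The log2 change was −0.50 ± 0.18 (SE, edgeR FDR = 0.0253) in B1, which did not pass in the model of all samples, and 1.07 ± 0.18 (edgeR FDR = 5.16e-05) in B2, and the difference between them was 1.57 ± 0.26 (edgeR FDR = 0.00208). The call in B1 depended on the fit. Fitted on the 12 samples of B1 alone, where 14% of all genes were higher and 13.9% lower in T3, 5 of the 34 genes were higher and 6 lower, and HMG1 passed with the same change (edgeR FDR = 0.00184).

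CYB5 had 90.7, 89.6, 122 and 144 CPM in B1T1 and 67.0, 61.8, 54.9 and 66.0 CPM in B1T3, a change of −0.83 ± 0.21 (SE, edgeR FDR = 0.00191). In B2 it had 104, 99.1, 120.2 and 109 CPM in T1 and 292, 238, 180.2 and 132 CPM in T3, a change of 0.98 ± 0.20 (edgeR FDR = 0.00029). The samples of T3 did not overlap those of T1 in either culture, in opposite directions. ERG5, the sterol desaturase that is itself a cytochrome, had 445, 463, 528 and 632 CPM in B1T1 and 199, 229, 247 and 317 CPM in B1T3, a fall of 1.06 on the log2 scale (edgeR FDR = 7.43e-05). In B2 it had 454, 489, 597 and 508 CPM in T1 and 914, 752, 554 and 459 CPM in T3, and this difference did not pass (0.42 ± 0.19, edgeR FDR = 0.0612). ARE2, the major sterol acyltransferase, had 236, 204, 249 and 289 CPM in B1T1, 169, 178, 190.2 and 202 CPM in B1T3, 228, 224, 265 and 242 CPM in B2T1 and 564, 468, 368 and 312 CPM in B2T3. Every sample of B2T3 lay above those of the other 3 groups given, with a change of 0.85 ± 0.15 over B2T1 (edgeR FDR = 6.94e-05). The change in B1 was −0.40 ± 0.15 (edgeR FDR = 0.0294), which did not pass in the model of all samples and passed in the fit of B1 alone (edgeR FDR = 0.00433). For ERG1, squalene epoxidase, B1T3 had 609, 637, 583 and 621 CPM and B2T3 1706, 1624, 1284 and 1067 CPM, and the change over T1 was −0.26 ± 0.12 in B1 (edgeR FDR = 0.0854) and 0.96 ± 0.12 in B2 (edgeR FDR = 2.05e-06).

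The samples of B2T3 were also ordered by speed. The highest of the 4 was the 50 µL/s sample for 25 of the 34 genes and the lowest was the 290 µL/s sample for 27. The CPM fell at every step from 50 to 290 µL/s for 25 of the 34 genes in B2T3 (9.67% of all genes) and for 11 in B1T3 (16.4%). In B1T1 the order was the reverse, with a rise at every step for 18 of the 34 (7.06% of all genes) and a fall for 1. Rises at every step numbered 6 in B1T2 (9.08% of all genes), 5 in B1T3 (14.1%), 4 in B2T1 (11.8%), 4 in B2T2 (6.98%) and 4 in B2T3 (8.75%), so the 4 in B2T1 match the share over all genes.

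**Figure D4:**
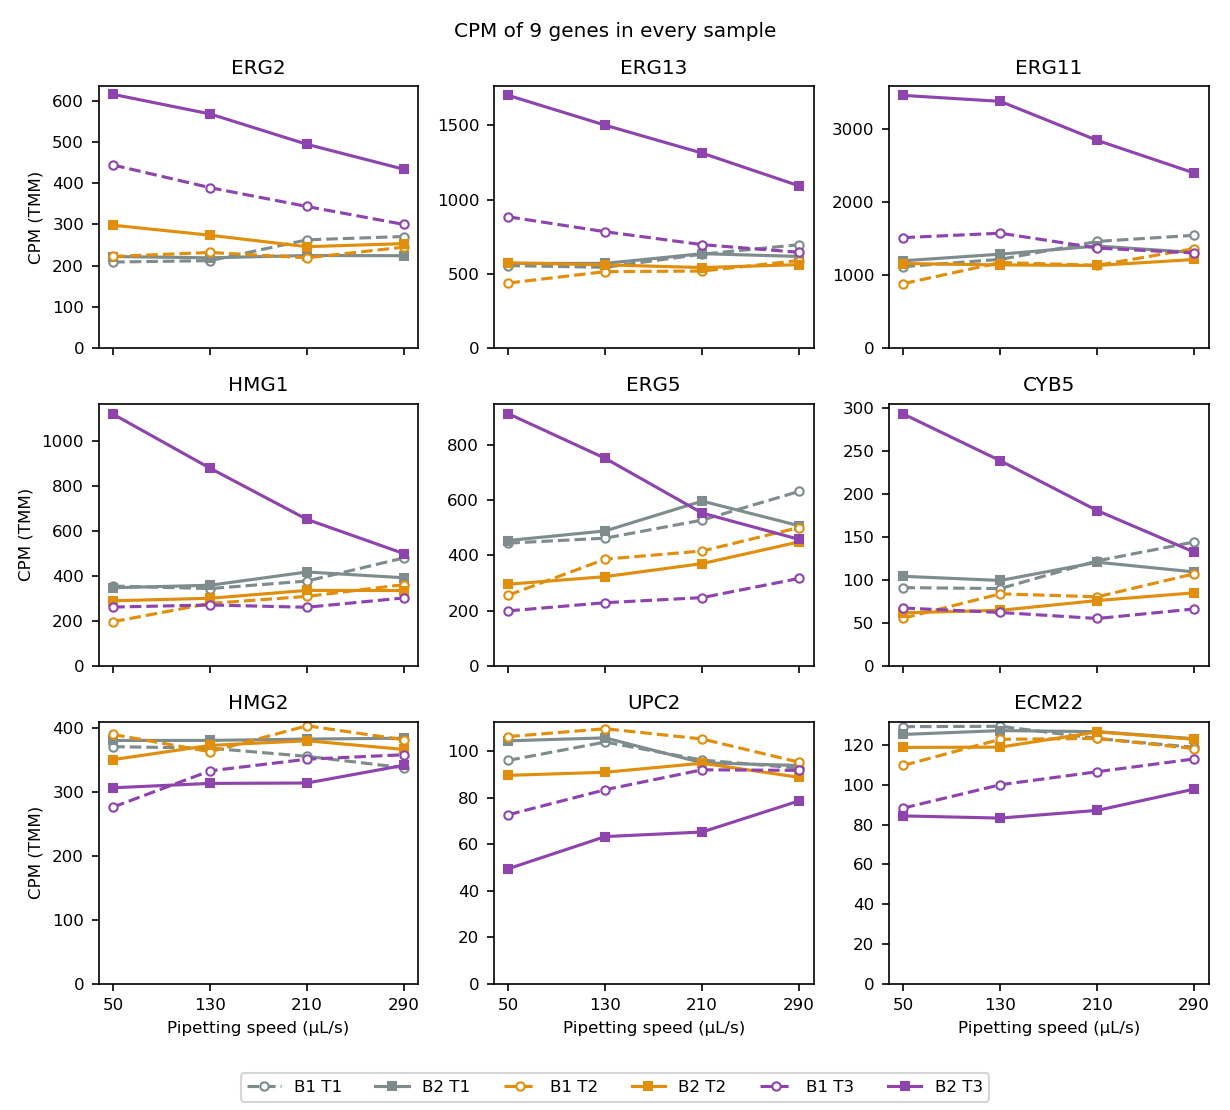
CPM of 9 genes in each of the 24 samples against pipetting speed in µL/s, with colour for the technical replicate number, dashed lines for biological replicate 1 and solid lines for biological replicate 2, and each axis from 0. In B2T3 the CPM of HMG1 falls from 1117 at 50 µL/s to 498 at 290 µL/s, while UPC2 rises from 49.5 to 78.7.

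To test this, a linear change per step of 80 µL/s was fitted within each technical replicate number, in a model that keeps the 6 combinations of culture and number apart. The model was chosen after the values by speed were seen. Each combination holds 1 library per speed. The labels do not give the order in which the samples were handled, and its part in the change per step was not tested. The change per step differed among T1, T2 and T3 for 19 of the 34 genes by edgeR's quasi-likelihood test (FDR below 0.01), where it did for 1.75% of all genes. In T3, 16 of the 34 fell with speed and 4 rose, compared with 7% and 3.31% of all genes. The 4 that rose were UPC2, ECM22, HMG2 and ARE1. In T1 and in T2, 0 of the 34 passed in either direction by edgeR (0% of all genes higher and 0% lower in each). An unadjusted edgeR p below 0.05 was found for 19 of the 34 in T1 and 13 in T2. The share of all genes at that p is not given here, so whether these counts are particular to the 34 was not tested. DESeq2 called 1 in T1 and 0 in T2.

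The medians of the log2 change per step over the 34 genes were 0.07 in T1, 0.02 in T2 and −0.11 in T3, while those over all genes were 0.0011, −0.0018 and −0.0022. ERG13 changed by −0.18 ± 0.02 per step in T3 (SE, edgeR FDR = 1.76e-05) and by 0.09 and 0.06 in T1 and T2. ERG2 changed by −0.18 per step in T3 (edgeR FDR = 3.61e-05), ERG7 by −0.16, ERG10 by −0.15 and IDI1, isopentenyl diphosphate isomerase, by −0.15. UPC2 changed by 0.16 per step in T3 (edgeR FDR = 9.59e-05) and by −0.04 and −0.03 in T1 and T2. An interaction of speed as 4 levels with technical replicate number, in a model without the combinations of culture and number, passed for 0 of the 34 genes by edgeR and by DESeq2, with 1 at an unadjusted p below 0.05 and 0% of all genes called.

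These counts rested in part on 1 library. Without 290 µL/s B2T3, 10 genes rather than 20 passed in T3, and 8 rather than 19 differed among the numbers. Fragment lengths moved with speed, with medians of 183 nt at 50 µL/s and 186 nt at 290 µL/s. With mean fragment length as a covariate, 9 genes passed in T3 (7 falling, 2 rising) and 13 differed among the numbers. The shares of all genes called in these fits are not given here, so whether the drop was particular to these genes was not tested.

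**Figure D5:**
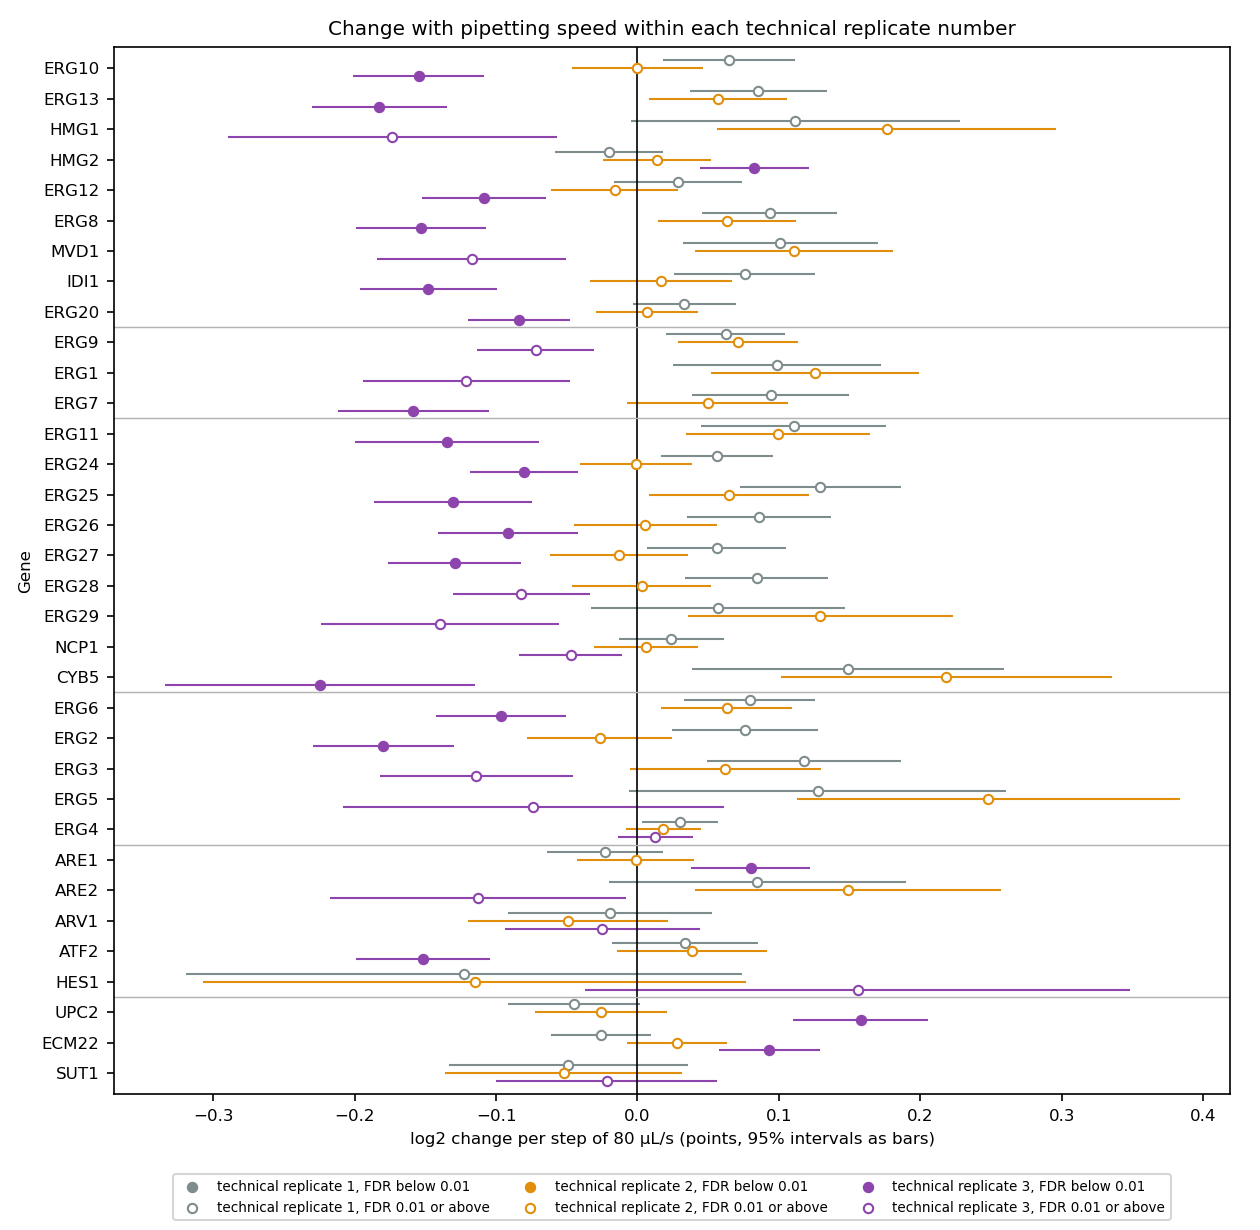
Log2 change per step of 80 µL/s for each of the 34 genes within T1 (grey), T2 (orange) and T3 (purple), from 1 edgeR model, with 95% intervals as bars and filled points for an FDR below 0.01. In T3, 16 genes fall and 4 rise, and in T1 and T2 no gene passes the threshold.

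Of the 49 other genes of sterol biology examined, T3 was higher than T1 for 5 and lower for 18 (edgeR FDR below 0.01), with a median log2 change of −0.07. Since 26.2% of all genes were higher and 23.1% lower, the number called in all was near the background. By direction, a smaller share of the 49 than of all genes was higher and a larger share was lower. The 8 genes of sterol uptake and the anaerobic targets of Upc2 were the most changed, with 7 lower and 0 higher and a median of −0.72. In this group, which includes cell wall mannoproteins made when oxygen is low, DAN1 fell by 1.92 on the log2 scale, TIR4 by 1.11 and TIR3 by 1.09. DAN1 had 133, 158 and 188 CPM as the lowest, median and highest of T1, 59.7, 98.6 and 135 CPM in T2 and 14.9, 46.9 and 55.6 CPM in T3, so that T3 lay below T2 and T2 below nearly all of T1. AUS1, a sterol importer, had 34.9, 40.1 and 43.5 CPM in T1 and 23.9, 26.3 and 27.7 CPM in T3, with no overlap. Its T2 samples, with 27.0, 32.7 and 40.0 CPM, overlapped both. Of the 8 genes of this group, 7 were lower in T3 in B1 and 7 in B2, where 18.8% of all genes were lower in each culture. The difference between the cultures in T3 against T1 passed for 0 of the 8.

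Read against the same shares, the 17 sterol transport genes leaned lower, with 8 lower (23.1% of all genes) and 1 higher (26.2% of all genes). The 1 that was higher was PRY2, a secreted sterol-binding protein. Of the 9 sterol homeostasis genes 1 was higher and 1 lower, of the 9 genes of isoprenoid branches 2 were higher, and of the 6 oxygen and heme regulators 1 was higher and 2 lower. ROX1, the repressor of hypoxic genes, had 134, 146 and 169.6 CPM in T1 and 86.5, 97.7 and 123 CPM in T3 (log2 change −0.56, edgeR FDR = 5.71e-05). In T2 it had 77.5, 133 and 177 CPM, a range that held those of T1 and T3. HAP1, the heme-responsive activator, fell in B2 (−0.49) and not in B1 (−0.04, which did not pass), and the difference between the cultures passed (−0.45, edgeR FDR = 0.00335). The difference between the cultures also passed for 3 of the 9 sterol homeostasis genes, each more positive in B2, namely YEH1, a sterol ester hydrolase, by 0.70, DAP1, a heme-binding partner of ERG11, by 0.67, and NSG2, a regulator of HMG-CoA reductase stability, by 0.66. It passed for 4 of the 49 genes in all, where 1.21% of all genes were more positive in B2 and 0.0583% less.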

How the data were processed

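Poly-A RNA of 24 samples was sequenced as short paired-end reads from a strand-marking kit. The authors trimmed reads with fastp 0.23.2, aligned them with STAR 2.7.10a to a W303 genome and deposited RSEM expected counts and TPM per gene (tools and versions as in the submitters' notes). 24 columns of a table of the whole series were mapped to no sample and not used. RSEM divides shared reads, and 23.8% of the expected counts were not whole, so they were rounded before testing.

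Totals, 11555784 to 15464458 counts per sample, set the counting precision, and reads without molecular identifiers are not independent molecules. Of 5193 genes, 5142 with an average count above 1 were kept. Counts were scaled by TMM and tested with the quasi-likelihood test of edgeR 4.0.16 (R 4.3.3) on all genes kept, and genes with a Benjamini-Hochberg FDR below 0.01 were called. The speed and culture comparisons used the study's model, speed and biological replicate, and the others added technical replicate number or its interaction. DESeq2 1.42.0, its size factors, no filter, an FDR of 0.05, mean fragment length as a covariate, fits within each culture or number and leaving out each sample were tried. Scripts were tested on simulated data.

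For the speed comparisons, samples of the same culture and technical replicate number at different speeds were checked for pairing. The deviations of these 36 pairs correlated between 0.29 and 0.81 (median 0.53), so the numbers were taken to pair samples across speeds. Of same-numbered samples of the 2 cultures at 1 speed, the 12 pairs correlated between −0.097 and 0.64 (median 0.40), with the values of T2 below 0. Pairing of the cultures by number was thus not uniform. Models that add technical replicate number without its interaction with culture still share that term between the cultures.

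The genes and lists were chosen with earlier results of these data known. All 34 genes are named by role, with full values for those of the 8 largest called changes of T3 over T1 and for the 3 regulators. The contrasts within cultures, the change per speed step and the genes HMG1, CYB5, ERG5, ARE2, ERG1, HMG2, ARE1, DAN1, AUS1, ROX1 and HAP1 were chosen after values were seen. Gene names came from the R64 annotation (5151 matched). Its build differs from that of the files, so no coordinates or sequences were used and a planned search for the sterol response element in promoters was not run. LEU2, HIS3, MFA1, MFA2 and AGA2 were not analysed here.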

Additional observations from a re-analysis of the deposited data

Results flagged for a closer look

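In groups of 4 to 8 samples, 5 samples lay far from the others of their group by Dixon's criterion, out of 102 gene groups by technical replicate number, 204 by culture and number, and 4 groups of the summed synthesis genes by speed. Chance alone gives about 1 in 20 such groups if they are independent, which these are not, as they share the same libraries. MVD1 was low in 50 µL/s B1T2, at 148 CPM against 209 to 249.7 CPM in the other T2 samples. The summed CPM of the 26 synthesis genes in B2T3 was 22461 at 50 µL/s (8012 to 11595 in the other 5 samples), 20933 at 130 µL/s (9225 to 11549), 18065 at 210 µL/s (9167 to 10815) and 15694 at 290 µL/s (9969.7 to 11545). For single genes by speed, 74 of 136 groups held such a sample, and in 73 it was the B2T3 sample, which was high. Each group by speed, of sums or of single genes, holds 1 of the B2T3 samples singled out above. These counts are therefore a description.

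The differences among technical replicate numbers were not the same in the 2 cultures for 24 genes (interaction in edgeR, FDR below 0.01). The log2 change of T3 over T1 was more positive in B2 than in B1 by 1.81 for CYB5, 1.57 for HMG1, 1.49 for ERG5, 1.251 for ARE2, 1.22 for ERG1, 1.12 for ERG3, 1.11 for ERG11 and 1.02 for ERG29. The difference was 0.95 for ERG25, 0.92 for ERG13, 0.89 for MVD1, 0.84 for IDI1, 0.80 for ERG8, 0.77 for ERG7, 0.72 for ERG10, 0.66 for ERG6, 0.64 for ERG26 and 0.64 for ATF2. It was smaller for ERG24 (0.57), ERG27 (0.57), ERG9 (0.55), ERG28 (0.54), ERG12 (0.51) and NCP1 (0.24).

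The change per step of speed differed among technical replicate numbers for 19 genes (edgeR, FDR below 0.01). Its log2 value in T3 was 0.16 for UPC2 and negative for the other 18. It was −0.22 for CYB5, −0.18 for ERG13, −0.18 for ERG2, −0.16 for ERG7, −0.15 for ERG10, −0.15 for ERG8, −0.15 for ATF2 and −0.15 for IDI1. It was −0.13 for ERG11, −0.13 for ERG25, −0.13 for ERG27, −0.12 for ERG1, −0.12 for MVD1, −0.11 for ERG3, −0.10 for ERG6, −0.092 for ERG26, −0.080 for ERG24 and −0.072 for ERG9.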

How the results depend on the processing

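Of the 34 genes, 290 against 50 µL/s called 0 over all samples with either model, 2 within technical replicate 2 and 7 within technical replicate 3. Within 1 number the technical replicate term drops out, so both models are the same fit there. With technical replicate number as a replicate block shared by both cultures, the counts for speed and culture stayed at 0. That block does not keep the 6 combinations of culture and number apart, so it is not a fit paired within them. T2 against T1 called 0, and 1 within either culture alone. T3 called 25 against T1 and 25 against T2, and 11 and 16 within biological replicate 1 alone, where, of the genes called in either fit, HMG1 (−0.50), CYB5 (−0.82), ARE2 (−0.41) and ERG8 (−0.022) turned in direction against T1, and ERG5 (−0.65) and ERG1 (−0.045) against T2. ERG1, ERG9, ERG29 and HES1 turned against T1 without a call in either fit. The culture comparison with the block called 0 by edgeR, 4 by DESeq2 and 6 at an FDR of 0.05. T3 against T1 in B1 called 11, and 19 at 0.05. The change per speed step called 0 in T1 (1 by DESeq2), 0 in T2 (3 at 0.05) and 20 in T3 (9 with the fragment length covariate). Leaving out 1 sample gave 0 to 2 calls for culture with the block (2 without 290 or 210 µL/s B1T1) and 8 to 17 for T3 against T1 in B1 (17 without 290 µL/s B1T1). It gave 8 to 27 for the difference between cultures (8 without 50 µL/s B2T1, 9 without 210 µL/s B1T1, 130 µL/s B2T1 or 130 µL/s B2T3), and 10 to 26 for the change per step in T3 and 8 to 24 for its difference (10 and 8 without 290 µL/s B2T3). The cause of these shifts was not tested. Shares of all genes called by DESeq2, at an FDR of 0.05, with the covariate or without 1 sample are not given here. Every other count lay within 1.5 times its value. The contrasts within cultures and per step were added after seeing the data. With 2 cultures, what is particular to 1 culture cannot be told from what is particular to its handling.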
